A study of Mus musculus with 26 samples.

Results

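The genes described are 10 subunits of the mouse SWI/SNF (BAF) chromatin remodelling complexes, chosen by symbol from a table of 23416 genes: Arid1a, Arid1b, Arid2, Pbrm1, Smarca4, Smarcb1, Smarcc1, Smarcc2, Smarcd2 and Smarce1. Arid1a was selected on its levels across the genotype groups of these same libraries, so its genotype differences are a description and carry no test. The other 9, called its partners here, were chosen to ask whether they share that pattern. All 10 passed the filter on low values, which kept 12116 genes with at least 1 RPKM in at least 5 libraries. RPKM counts reads relative to gene length and to the depth of the library.

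The libraries were made with Smart-Seq2, a full-length cDNA method for small inputs, from haematopoietic stem cells sorted out of mouse bone marrow. There were 5 control libraries, 7 from mice with JAK2V617F, 7 with loss of Ezh2, and 7 with both lesions, called the double mutant (the label spells its mutation JAK2V17F). JAK2V617F is a constantly active form of the cytokine receptor kinase JAK2 and drives myeloproliferative neoplasms. Ezh2 is the catalytic subunit of Polycomb repressive complex 2 (PRC2), which methylates histone H3 at lysine 27. The driver or Cre line behind each lesion, strain, age, sex, cells per library and number of mice are not stated in the labels, so the p-values measure the spread between these libraries, which may be partly technical.

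SWI/SNF complexes use ATP to slide and evict nucleosomes, and they counteract Polycomb repression at shared target genes. A complex is built on a core of an ATPase and scaffold subunits, to which either Arid1a or Arid1b is added to make canonical BAF, or Arid2 and Pbrm1 to make PBAF. In blood, these subunits are known for roles in stem cell maintenance and in the choice between lineages, and ARID1A is recurrently mutated in human cancers.

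Library titles came in 2 forms, with the number before the group code (number-first, 15 libraries) or after it (number-last, 11 libraries), and what this naming stands for is not given in the labels. It overlaps with genotype: the number came first in 4 of 5 control, 2 of 7 JAK2V617F, 2 of 7 Ezh2-loss and 7 of 7 double-mutant titles. Adjusted over 12116 genes in limma, 11% of all tested genes differed between the naming styles, 931 higher and 400 lower in number-first libraries, so differences between genotypes are given with naming style fitted and also without it. Depth, estimated from the steps of low RPKM values, ran from 14.2 to 29.2 M reads (M for mega) in number-first and from 7.82 to 18.2 M in number-last libraries. All 10 stem cell markers (Kit, Procr, Mecom and others) were detected in every group, with summed levels of 868 to 1770 RPKM. Transcripts of neutrophils, such as Camp and Ngp, summed to a median of 71.7 RPKM in control libraries, 86.2 with JAK2V617F, 14675 with Ezh2 loss and 604 with both lesions. The JAK2V617F libraries ran from 72.9 to 17655 RPKM, and the 2 number-first ones were at 80.6 and 17655. Within the double mutant, the 4 libraries with title numbers 24 to 27 stood apart, with Actb at 4602 ± 484 RPKM (SD, n = 4) against 873 ± 68.0 (SD, n = 3) in the other 3. Actb ran from 5059 to 10072 RPKM in number-last libraries and from 556 to 1105 in the remaining number-first libraries of all groups. In Arid1a these 4 libraries were at 6.02 to 10.4 RPKM, below every number-last library. The naming style term counts them as number-first, so it need not adjust for what sets them apart, which was not tested. Ezh2 RNA over the whole gene spanned 8.11 to 33.2 RPKM in control libraries, 20.4 to 40.2 with JAK2V617F, 5.15 to 31.4 with Ezh2 loss and 6.71 to 31.4 with both lesions. These ranges overlapped, and a whole-gene level does not check a deletion of single exons.

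Arid1a, which contributes a DNA-binding ARID domain to canonical BAF, lies on chromosome 4 from 133679008 to 133756769 on the minus strand of GRCm38 (GENCODE M21). The 120 bases before its annotated start are shown beside those of the ATPase gene Smarca4 (chromosome 9, 21616169 to 21704230, plus strand), because Arid1a is the gene the comparison turns on and Smarca4 encodes the motor of the same complex. The sequences are from RefSeq (GRCm38.p6), 5′ to 3′ on the gene's strand, with each CG dinucleotide in capitals.
Arid1a, chr4:133756770-133756889, minus strand: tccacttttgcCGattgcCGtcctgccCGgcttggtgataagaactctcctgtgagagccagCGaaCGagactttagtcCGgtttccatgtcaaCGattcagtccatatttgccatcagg
Smarca4, chr9:21616049-21616168, plus strand: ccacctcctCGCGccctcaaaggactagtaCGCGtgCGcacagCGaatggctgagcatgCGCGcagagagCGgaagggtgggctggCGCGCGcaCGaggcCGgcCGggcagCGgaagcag
The Arid1a stretch held 7 CG dinucleotides at a GC content of 51.7%, and the Smarca4 stretch held 16 at 70.8%. The promoter table held 9 promoters of 8 members, and Arid2 and Smarce1 were not matched. In the 250 bases before each promoter's own start, CG counts were 18 and 33 in the Arid1a promoters, 37 in Arid1b, 25 in Smarca4, 21 in Smarcb1 and Smarcc1, 40 in Smarcc2, 31 in Pbrm1 and 4 in Smarcd2, against a median of 6 over 32851 promoters. These starts are not all gene starts. The windows of Smarcd2 (106267583 to 106267882), Smarcc1 (110131774 to 110132073), Arid1b (4994824 to 4995123) and the second Arid1a promoter lay inside the annotated genes. For Smarcd2, Smarcc1, Smarcc2 and the second Arid1a promoter, 0 annotated transcripts were listed as starting there. For Arid1b it was 1. All of these member promoters except that of Smarcd2, a window inside the gene, were richer in CG than the median promoter. The motif TTCNNNGAA, the palindrome recognised by STAT factors and so the same on both strands, was in 0 of these 9 promoters and in 7.02% of all promoters of that length. No match says only that these letters are not in this window.

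Arid1a RNA was lowest in the double mutant and highest in the 2 single-mutant groups. In the 5 control libraries it was 12.7, 8.73, 12.9, 20.1 and 25.96 RPKM, the last of these being the number-last library, and the mean was 16.1 ± 6.88 (SD, n = 5). JAK2V617F libraries ran from 13.8 to 53.4 RPKM with a median of 34.2 and a mean of 32.7 ± 14.1 (SD, n = 7). Ezh2-loss libraries ran from 20.9 to 48.8 with a median of 28.8 and a mean of 34.4 ± 11.9 (SD, n = 7). Double-mutant libraries ran from 5.66 to 18.1 with a median of 9.93 and a mean of 10.1 ± 4.10 (SD, n = 7). The Ezh2-loss and double-mutant ranges did not overlap, while the double-mutant range overlapped that of control and of JAK2V617F. The Ezh2-loss and JAK2V617F levels lay within each other's spread.

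Much of the spread in Arid1a followed naming style. Number-last libraries ran from 25.2 to 53.4 RPKM and number-first libraries from 5.66 to 25.8, so only the ends of the ranges met. Among number-first libraries the means were 23.4 ± 3.41 (SD, n = 2) for Ezh2 loss, 16.0 ± 3.12 (SD, n = 2) for JAK2V617F, 13.6 ± 4.72 (SD, n = 4) for control and 10.1 for the double mutant. The order of the 4 means was thus the same as over all libraries, while the gap between Ezh2 loss and JAK2V617F was wider and the gap between JAK2V617F and control narrower. In number-last libraries JAK2V617F was at 39.5 ± 9.88 (SD, n = 5) and Ezh2 loss at 38.8 ± 11.1 (SD, n = 5), which do not differ beyond their spread. No double-mutant library was number-last.

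The difference of the double mutant from Ezh2 loss in Arid1a was -1.01 (SE 0.34) on the log2(RPKM + 1) scale with naming style fitted and -1.69 (SE 0.33) without it. Against JAK2V617F the same differences were -0.89 (SE 0.34) and -1.56 (SE 0.33). Against control they were smaller, at -0.42 and -0.61, and the former was -0.27 with control replicate 4 left out. Both single mutants were above control, by 0.59 (SE 0.33) for Ezh2 loss and 0.47 (SE 0.33) for JAK2V617F with style fitted, and by 1.07 and 0.95 without it. The interaction (double mutant plus control, less the single mutants) was -1.47 (SE 0.53) with style fitted and -2.64 (SE 0.49) without. Fitting the naming style therefore took away 40.2 to 44.1% of the interaction and of the double-mutant differences from Ezh2 loss and JAK2V617F, and left their direction. These comparisons share libraries with each other and are given side by side for that reason.

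The direction of each of the 7 Arid1a genotype differences was kept in all 39 alternative settings tried, or 38 for the interaction. Arid1a was chosen on these levels and 26 of the settings only leave out 1 library, so the kept direction is a description and no support. The sizes moved, with the interaction from -2.64 without the style term to -1.18 with a pseudocount of 5. With number-first libraries alone the double mutant lay 1.21 below Ezh2 loss and 0.68 below JAK2V617F on the log2 scale. With the 4 double-mutant libraries numbered 24 to 27 given a level of their own the difference from Ezh2 loss was -0.87, and with neutrophil transcripts as a covariate it was -1.08. Summed neutrophil transcripts had a median of 604 RPKM in the double mutant (47.0 to 52098) and of 14675 in Ezh2 loss (404 to 38184), with all 10 markers above 0 in both groups. Erythroid transcripts reached a median of 1160 RPKM in Ezh2 loss against 10.7 in the double mutant. The high values were in number-last Ezh2-loss libraries (33.7 to 6181 RPKM). The number-first Ezh2-loss libraries were at 30.8 and 49.9, and the double mutant, all number-first, ran from 5.29 to 42.1. The part of these erythroid transcripts in the Arid1a difference was not tested.

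**Figure D1:**
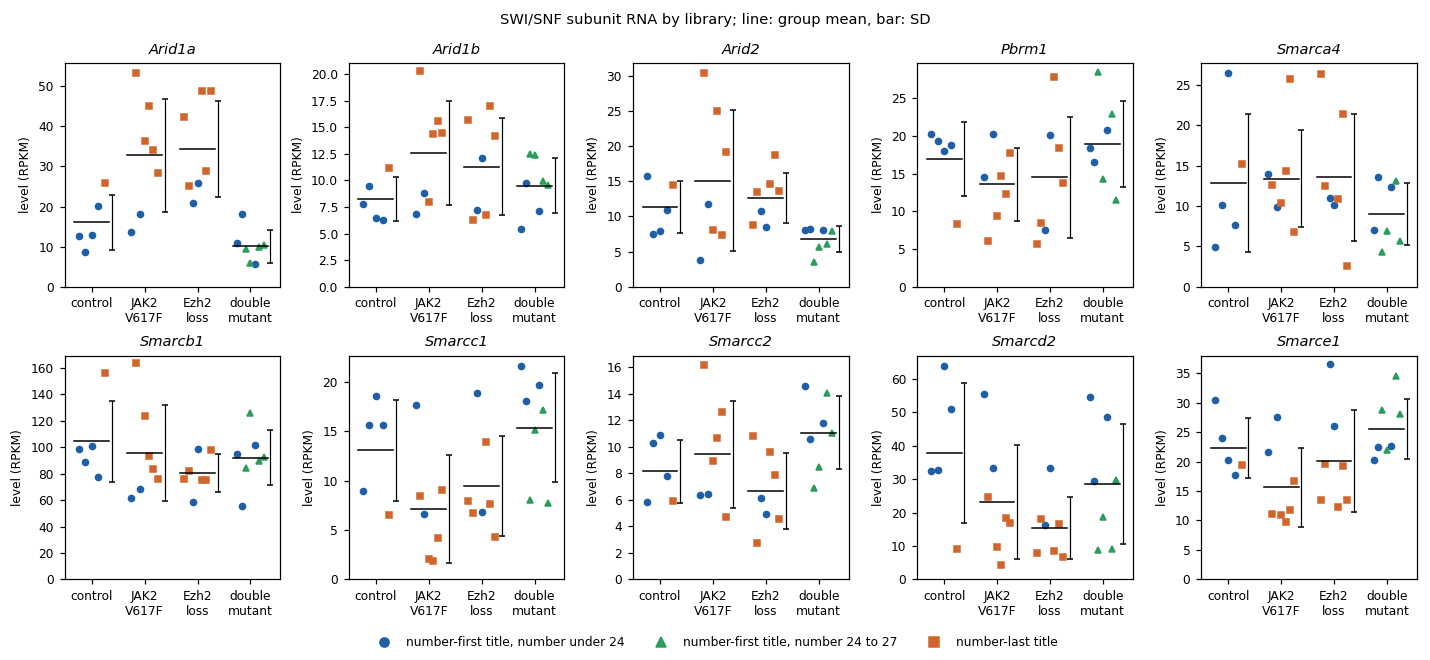
RPKM (y axis) of each of the 10 subunits in each of the 26 libraries, by genotype group (x axis). Points are libraries, coloured by naming style and title number, horizontal lines are group means and bars are SD. In the Arid1a panel the double-mutant points lie between 5.66 and 18.1 and all Ezh2-loss points lie above them, while the number-last points (squares) sit high in Arid1a and low in Smarcd2 and Smarce1.

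No partner passed the test between genotypes. With naming style fitted, 0 of 9 partners passed in limma in any of the 7 genotype comparisons, and the whole table gave few calls as well. The share of all tested genes that passed was 0% for JAK2V617F against control, 0% for Ezh2 loss against control, 0.00825% for the double mutant against control, 0.033% for the double mutant against JAK2V617F, 0% for the double mutant against Ezh2 loss, 0.099% for Ezh2 loss against JAK2V617F, 0% for the interaction and 0.099% for any difference among the 4 groups. At an unadjusted p under 0.05, 2 of 9 partners (Smarcb1 and Smarcc2) differed between the double mutant and Ezh2 loss, 1 of 9 (Smarcb1) between Ezh2 loss and control, 1 of 9 (Smarcb1) in the interaction and 0 in the other comparisons. Over all genes the unadjusted counts were 950, 736 and 738 of 12116 for those 3 comparisons. A count of 0 partners is therefore near what the table as a whole gave. With style fitted, the double mutant had lower estimates than JAK2V617F in 3 of 9 partners (Arid2, Smarca4 and Smarcd2). It was lower in 4 of 9 against Ezh2 loss (those and Smarce1) and in 4 of 9 against control (those and Smarcb1). The other partners were higher. Over all 12116 genes, 5958, 6032 and 6123 were lower in these comparisons.

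Without the naming style term more genes were called, and still none of the 9 partners in limma. The shares of all genes were then 0.00825% for JAK2V617F against control, 0% for Ezh2 loss against control, 0% for the double mutant against control, 2.26% for the double mutant against JAK2V617F, 0.702% for the double mutant against Ezh2 loss, 0.0743% for Ezh2 loss against JAK2V617F, 1.77% for the interaction and 0.718% for any difference. At an unadjusted p under 0.05 the partners numbered, for the double mutant, 3 of 9 against JAK2V617F (Arid2, Smarcc1 and Smarce1) and 2 of 9 against Ezh2 loss (Arid2 and Smarcc2), and 3 of 9 in the interaction (Smarcc1, Smarcd2 and Smarce1). Over all 12116 genes the counts at that threshold were 2169, 1829 and 2210. Against control it was 1 of 9 with JAK2V617F (Smarcc1) and 1 of 9 with Ezh2 loss (Smarcd2), beside 961 and 1008 of all genes. Against both single mutants the Arid2 estimate was negative, and the estimates for the other partners named against them were positive. Over 2448 partner values from all alternatives, 0 passed, and the lowest adjusted p was 0.115, for Smarcc1 higher in the double mutant than in JAK2V617F by 1.20 (SE 0.42) without the style term. Misses of this kind do not show equal levels: the 95% interval of the double mutant against Ezh2 loss with style fitted was 0.03 to 0.99 for Smarcb1 and 0.01 to 1.70 for Smarcc2. The difference between Arid1a and a partner was not tested.

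**Figure D2:**
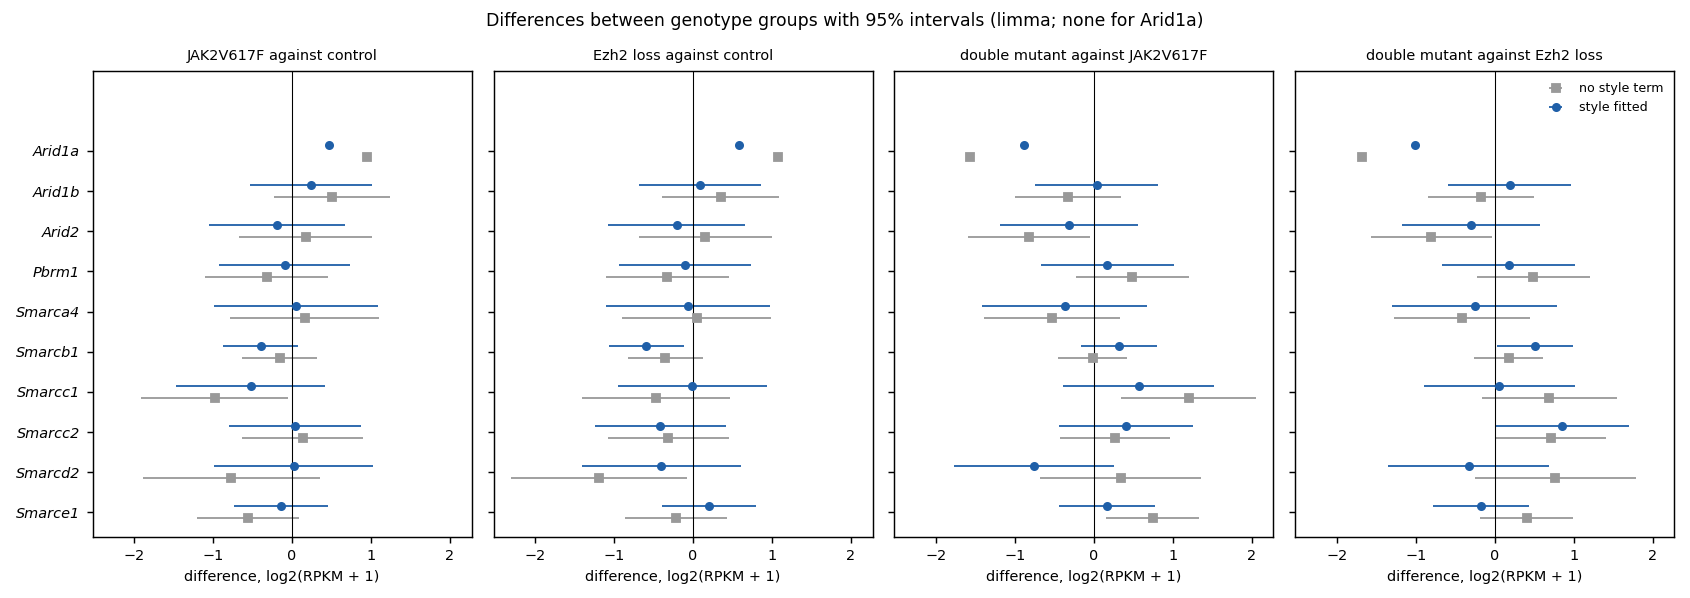
Differences on the log2(RPKM + 1) scale (x axis) for the 10 subunits (y axis) in 4 comparisons between genotype groups, with naming style fitted (blue circles) and without it (grey squares). Horizontal lines are 95% intervals from limma for the 9 partners, and Arid1a, chosen on these levels, is shown without one. Its points in the double-mutant panels lie nearer to 0 when style is fitted.

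Arid1b, the paralogue that takes the same place as Arid1a in canonical BAF (chromosome 17, 4994332 to 5347656), varied less between groups. It was at 7.73, 9.43, 6.48, 6.30 and 11.2 RPKM in the control libraries, the last being number-last. JAK2V617F libraries ran from 6.80 to 20.3 with a median of 14.3, Ezh2-loss libraries from 6.24 to 17.0 with a median of 12.1, and double-mutant libraries from 5.47 to 12.5 with a median of 9.72. All 4 ranges overlapped, and the lowest double-mutant library lay below both single-mutant ranges. The double mutant differed from Ezh2 loss by 0.19 (SE 0.38, 95% interval -0.60 to 0.97, limma adjusted p = 0.951) with style fitted and by -0.18 without it.

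The ratio of Arid1a to Arid1b RPKM, taken within each library, moved with Arid1a. It averaged 2.01 ± 0.84 (SD, n = 5) in control libraries, 2.65 ± 0.93 (SD, n = 7) with JAK2V617F, 3.45 ± 1.85 (SD, n = 7) with Ezh2 loss and 1.14 ± 0.58 (SD, n = 7) with both lesions. In the double mutant it ran from 0.487 to 2.01 and in Ezh2 loss from 1.69 to 7.27, so the ends of these ranges overlapped. Because Arid1a was chosen on its level, this ratio is a description. Among number-first libraries the ratio was 1.93 for control, 2.05 for JAK2V617F and 2.52 for Ezh2 loss, and in the double-mutant libraries numbered 24 to 27 it was 0.831 against 1.56 in the other 3.

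Arid2, the ARID subunit of PBAF (chromosome 15, 96287518 to 96404992), had its lowest group median in the double mutant. Control libraries had 15.8, 7.55, 7.86, 10.9 and, in the number-last library, 14.5 RPKM. JAK2V617F ran from 3.74 to 30.5 with a median of 11.8, Ezh2 loss from 8.53 to 18.7 with a median of 13.4, and the double mutant from 3.51 to 8.22 with a median of 7.94. Every double-mutant library lay below every Ezh2-loss library, by a gap of under 1 RPKM, and the JAK2V617F range overlapped both. Levels of the double mutant and Ezh2 loss failed to overlap for 1 of the 9 partners, Arid2, and for 0.578% of all tested genes. Within number-first libraries this held for 2 of 9, Arid2 and Smarcc2, and for 7.11% of all genes. The fitted difference in Arid2 was -0.30 (SE 0.43, 95% interval -1.18 to 0.57, limma adjusted p = 0.912) with style and -0.81 (SE 0.38, adjusted p = 0.304) without it. With style fitted Arid2 stood at -0.19 in JAK2V617F and -0.20 in Ezh2 loss against control, where Arid1a was positive. The double mutant stood at -0.32 against JAK2V617F and -0.51 against control in Arid2, where Arid1a was negative too. With the libraries numbered 24 to 27 at a level of their own the Arid2 difference from Ezh2 loss was -0.03, and those 4 libraries had 5.78 ± 1.81 RPKM (SD, n = 4) against 8.12 ± 0.08 (SD, n = 3) in the other 3.

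Pbrm1, the polybromo subunit of PBAF that binds acetylated histones (chromosome 14, 31019138 to 31121592), did not follow Arid2 or Arid1a. In control it was at 20.2, 19.3, 17.9, 18.8 and 8.32 RPKM, with the number-last library far below the others. JAK2V617F ranged from 6.08 to 20.3 with a median of 14.5, Ezh2 loss from 5.61 to 27.7 with a median of 13.7, and the double mutant from 11.4 to 28.5 with a median of 18.4. The groups overlapped widely, and the double mutant against Ezh2 loss gave 0.17 (SE 0.41, 95% interval -0.67 to 1.02, limma adjusted p = 0.959).

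Smarca4 (BRG1), the ATPase whose promoter is shown above, was spread over a wide range inside each group. Control libraries had 4.87, 10.1, 26.5, 7.59 and 15.2 RPKM. JAK2V617F ran from 6.72 to 25.7 with a median of 12.6, Ezh2 loss from 2.53 to 26.4 with a median of 10.9, and the double mutant from 4.32 to 13.6 with a median of 7.01. The highest double-mutant library lay within the range of every other group. The double mutant differed from Ezh2 loss by -0.26 (SE 0.51, 95% interval -1.30 to 0.79, limma adjusted p = 0.948) with style fitted. The same fit gave -0.37 against JAK2V617F and -0.32 against control, the direction of Arid1a. Smarca2 (BRM), the alternative ATPase, was the more abundant of the pair per kilobase, at a mean of 25.6 ± 8.34 RPKM (SD, n = 26) against 12.1 ± 6.54 for Smarca4. The ratio of Smarca4 to Smarca2 averaged 0.493 for control, 0.553 for JAK2V617F, 0.567 for Ezh2 loss and 0.387 for the double mutant, with SDs of 0.292, 0.236, 0.451 and 0.0969, and the groups overlapped.

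Smarcb1 (SNF5), a core subunit that anchors the complex to the nucleosome (chromosome 10, 75896769 to 75921617), had the highest level per kilobase of the 10. Control libraries had 98.6, 89.1, 101, 77.4 and 156 RPKM, the last being number-last. JAK2V617F ran from 61.6 to 164 with a median of 83.5, Ezh2 loss from 58.2 to 98.4 with a median of 76.0, and the double mutant from 55.6 to 126 with a median of 92.99. The fitted difference of the double mutant from Ezh2 loss was 0.51 (SE 0.23, 95% interval 0.03 to 0.99), opposite in sign to that of Arid1a, and it did not pass (limma adjusted p = 0.618). Without the style term it was 0.18. Against control, Ezh2 loss was lower by 0.59 (SE 0.23, limma adjusted p = 0.740), which also did not pass.

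The scaffold subunits Smarcc1 (BAF155, chromosome 9, 110117708 to 110240178) and Smarcc2 (BAF170, chromosome 10, 128459248 to 128490482) pair up in the core. Smarcc1 was at 8.91, 15.7, 18.5, 15.6 and, in the number-last library, 6.53 RPKM in control, from 1.88 to 17.6 with a median of 6.65 in JAK2V617F, from 4.24 to 18.8 with a median of 7.66 in Ezh2 loss, and from 7.70 to 21.7 with a median of 17.2 in the double mutant. Its low values were mostly in number-last libraries, which averaged 6.59 ± 3.47 (SD, n = 11) against 14.4 ± 5.26 (SD, n = 15) in number-first ones. With style fitted, Smarcc1 in the double mutant differed from JAK2V617F by 0.57 (SE 0.47, limma adjusted p = 0.830). Smarcc2 ran from 5.86 to 10.9 RPKM in control libraries, 4.68 to 16.2 with JAK2V617F, 2.74 to 10.8 with Ezh2 loss and 6.89 to 14.6 with both lesions. It lay 0.85 (SE 0.41, 95% interval 0.01 to 1.70, limma adjusted p = 0.630) higher in the double mutant than in Ezh2 loss with style fitted, which did not pass. The ratio of Smarcc1 to Smarcc2 was 1.65 ± 0.61 (SD, n = 15) in number-first and 0.984 ± 0.72 (SD, n = 11) in number-last libraries.

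**Figure D3:**
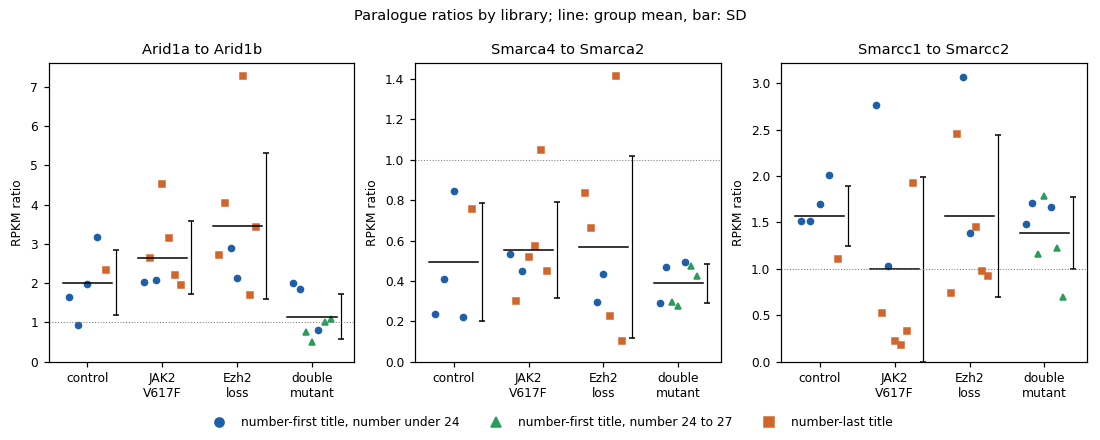
Ratio of RPKM (y axis) within each library for 3 pairs of paralogues, by genotype group (x axis). Points are libraries coloured by naming style and title number, lines are group means, bars are SD and the dotted line marks equal levels. The Arid1a to Arid1b ratio averages 1.14 in the double mutant and 3.45 in Ezh2 loss, while Smarca4 to Smarca2 averages below 1 in every group.

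Smarcd2 (BAF60b), a subunit needed for granulocyte formation (chromosome 11, 106263179 to 106272972), varied most with naming style. Control libraries had 32.5, 32.7, 64.0, 51.1 and, in the number-last library, 9.01 RPKM. JAK2V617F ran from 4.42 to 55.6 with a median of 18.3, Ezh2 loss from 6.57 to 33.2 with a median of 16.3, and the double mutant from 8.90 to 54.8 with a median of 29.4. The double-mutant libraries split: those numbered 24 to 27 had 16.7 ± 9.90 (SD, n = 4) and the other 3 had 44.3 ± 13.3. The double mutant differed from Ezh2 loss by -0.33 (SE 0.50) with style fitted, by 0.76 without it and by 0.51 with the 24 to 27 set at its own level, so the sign turned with the handling of these sets. With style fitted it was also below JAK2V617F (-0.76) and control (-0.73), the direction of Arid1a. These signs turned as well, to 0.34 against JAK2V617F without style and 0.11 against control with the 24 to 27 level. None of these passed in limma.

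Smarce1 (BAF57), an HMG-box subunit that contacts DNA (chromosome 11, 99209047 to 99231017), had 30.4, 24.02, 20.2, 17.7 and, in the number-last library, 19.5 RPKM in control. JAK2V617F ran from 9.73 to 27.6 with a median of 11.7, Ezh2 loss from 12.2 to 36.6 with a median of 19.2, and the double mutant from 20.3 to 34.5 with a median of 22.6. The single mutants' low values came from number-last libraries, which spanned 9.73 to 19.7 RPKM against 17.7 to 36.6 in number-first ones. With style fitted the double mutant differed from JAK2V617F by 0.17 (SE 0.30, limma adjusted p = 0.939), and without it by 0.74 (SE 0.29, adjusted p = 0.163). From Ezh2 loss the difference was -0.17 with style fitted and 0.40 without it.

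The naming style itself separated 3 of the 10 members, and 2 of the 9 partners, against 11% of all tested genes. Arid1a was lower in number-first libraries by 0.95 (SE 0.27, limma adjusted p = 0.0196), with genotype in the fit. Because Arid1a was chosen on a genotype pattern that overlaps with naming style, this p-value is not independent of that choice. Smarcd2 was higher there by 1.53 (SE 0.40, limma adjusted p = 0.00972), and Smarce1 was higher by 0.81 (SE 0.24, limma adjusted p = 0.0232). The median style difference was -0.21 over the members and 0.17 over all tested genes. Smarcc1 at 0.89 (SE 0.37, limma adjusted p = 0.137), Arid2 at -0.71 (SE 0.34, adjusted p = 0.212) and Smarcb1 at -0.47 (SE 0.19, adjusted p = 0.116) did not pass. With the number of detected genes as a covariate none of the 3 passed in limma (adjusted p = 0.255 for Arid1a, 0.642 for Smarcd2 and 0.0598 for Smarce1), while the differences were then -0.87 for Arid1a, 0.60 for Smarcd2 and 1.09 for Smarce1. The Arid1a call was also lost without control replicate 5 (adjusted p = 0.0571), the only number-last control, and without JAK2V617F replicate 1 (adjusted p = 0.0764). The Smarcd2 call was lost without control replicate 5 (adjusted p = 0.0601). The Smarce1 call was lost after quantile normalization (adjusted p = 0.0869) and without any of JAK2V617F replicates 1 and 3 or Ezh2-loss replicate 3 (adjusted p = 0.0503, 0.0874 and 0.0845). Smarcb1 passed without Ezh2-loss replicate 4 (adjusted p = 0.0309).

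Other subunits of the complexes, from a list of 21 of which 17 passed the low-value filter, also differed between the styles in part. In limma 5 of 17 differed by naming style: Phf10, a PBAF reader subunit, by 2.83 (SE 0.64), Smarcd1, the paralogue of Smarcd2, by 2.33 (SE 0.40), and Bcl7c by 1.46 (SE 0.24) were higher in number-first libraries. Actl6a, an actin-related subunit, by -0.74 (SE 0.22) and Actb, the actin subunit that is also a main cytoskeletal protein, by -3.10 (SE 0.37) were lower. The 5 adjusted p-values ran from 1.43e-06 for Actb to 0.0277 for Actl6a. Smarcd1 averaged 21.5 ± 7.57 RPKM (SD, n = 15) in number-first and 4.84 ± 5.28 (SD, n = 11) in number-last libraries. Neuron-associated members Actl6b, Dpf1 and Dpf3, and the lymphoid factor Bcl11b, did not pass the filter and had mean levels of 0.141, 0.105, 0.0642 and 0.000552 RPKM. The median style difference of the 17 was 0.47, against 0.17 over all tested genes, of which 11% passed.

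**Figure D4:**
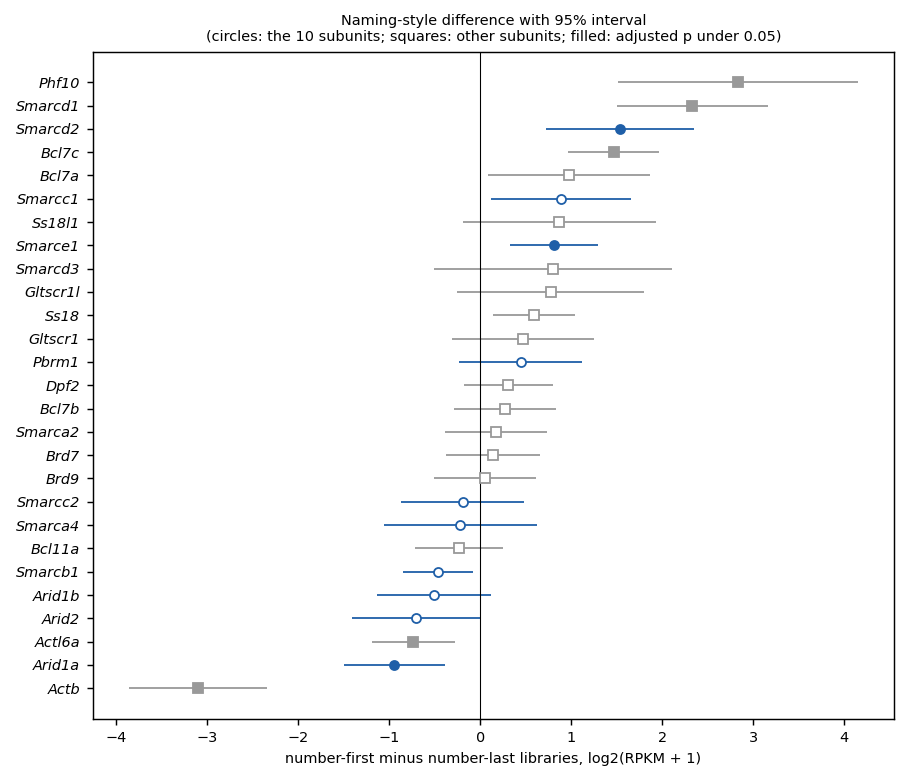
Difference between number-first and number-last libraries on the log2(RPKM + 1) scale (x axis), genotype fitted, for the 10 subunits (blue circles) and 17 other SWI/SNF subunits (grey squares), with 95% intervals from limma. Filled symbols passed at the adjusted threshold: Arid1a, Smarcd2 and Smarce1 among the 10, and Phf10, Smarcd1, Bcl7c, Actl6a and Actb among the others.

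By genotype, 0 of the 17 other subunits passed in limma with style fitted in any of the 7 comparisons. At an unadjusted p under 0.05 there were 4 of 17 in the interaction and 3 or fewer elsewhere. Over all 12116 tested genes that count was 738 in the interaction and ran from 501 to 1002 over the 7 comparisons. Without the style term 2 of 17 passed between the double mutant and JAK2V617F, beside 2.26% of all tested genes. In the interaction it was 1 of 17, beside 1.77%. Smarcd1 by 2.36 (SE 0.60, limma adjusted p = 0.0344) and Ss18 by 0.96 (SE 0.25, limma adjusted p = 0.0394) were higher in the double mutant than in JAK2V617F. Dpf2, a PHD-finger subunit, had an interaction of 1.44 (SE 0.37, limma adjusted p = 0.0427). All 3 values were positive, where those of Arid1a were negative, but this fit does not tell genotype from naming style. Smarcd1 itself was higher in number-first libraries. Among those, it was at 10.6 and 25.2 RPKM in JAK2V617F and from 12.6 to 33.9 in the double mutant. Of the 11 genes of PRC2, which counters SWI/SNF, 0 passed by genotype with style fitted, with at most 2 at an unadjusted p under 0.05. For naming style 1 of 11 passed, beside 11% of all tested genes: Ezh1, the paralogue of Ezh2, at 1.76 (SE 0.56, limma adjusted p = 0.0389). Without the style term Phf1, a PRC2 accessory protein, was higher in the double mutant than in JAK2V617F by 2.34 (SE 0.51, limma adjusted p = 0.0185) and had an interaction of 3.06 (SE 0.76, adjusted p = 0.0318). It was the 1 of 11 that passed in either comparison, beside 2.26% and 1.77% of all tested genes. Among 19 tested ATPases of other remodelling families, 0 passed by genotype with style fitted, with at most 2 at an unadjusted p under 0.05. Of the 19, 1 passed for naming style, beside 11% of all tested genes: Smarca5, the ISWI motor, at 1.16 (SE 0.32, limma adjusted p = 0.0165).

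Across libraries, Arid1a was followed with each partner separately in the 15 number-first and 11 number-last libraries, since the styles form separate clusters. Genotype groups were pooled within each style, and the permutations ignored genotype. Arid1a was chosen on its genotype levels, so r and p here may partly restate differences between genotype groups. Of these 18 relations, 0 passed after Benjamini-Hochberg adjustment of two-sided permutation p-values of Pearson's r. The strongest was Smarce1 in number-last libraries, with r = -0.80 (permutation p = 0.00581, adjusted 0.105) and Spearman's rho = -0.70 (p = 0.0211, adjusted 0.172), and without the 2 libraries farthest from the Arid1a median r was -0.73 (adjusted 0.246). In number-first libraries the same gene gave r = 0.09 (permutation p = 0.742, adjusted 0.835). Smarcb1 was inversely related to Arid1a in number-first libraries at r = -0.60 (permutation p = 0.0183, adjusted 0.165) and rho = -0.53 (p = 0.0473, adjusted 0.213), and without the 2 farthest libraries it reached r = -0.79 (adjusted 0.0184). In number-last libraries Smarcb1 gave r = 0.15 (permutation p = 0.661, adjusted 0.793). Smarcc2 took opposite signs in the styles, with r = -0.55 (permutation p = 0.0363, adjusted 0.216) and rho = -0.57 in number-first and r = 0.61 (permutation p = 0.0479, adjusted 0.216) and rho = 0.58 in number-last libraries. Arid2 was positive in both, with r = 0.41 (permutation p = 0.128, adjusted 0.462) and rho = 0.59 in number-first and r = 0.21 (permutation p = 0.525, adjusted 0.793) and rho = 0.30 in number-last libraries.

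**Figure D5:**
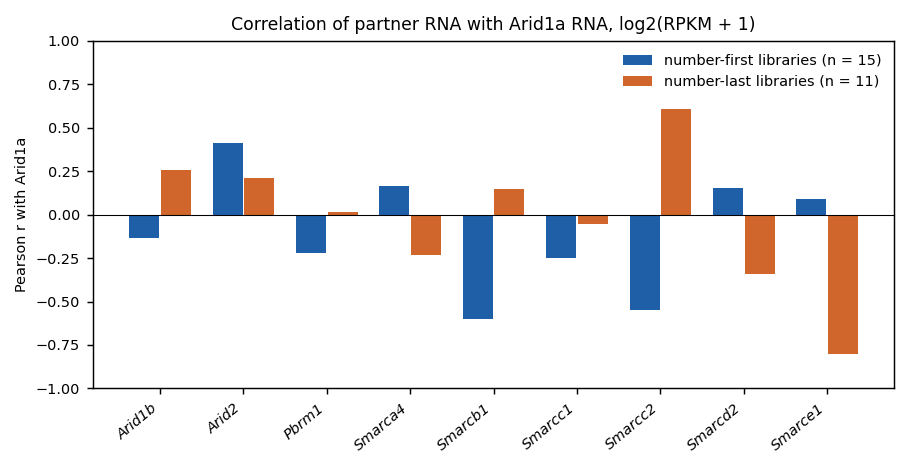
Pearson's r (y axis) of each of the 9 partners (x axis) with Arid1a on the log2(RPKM + 1) scale, in number-first (blue, n = 15) and number-last (orange, n = 11) libraries. Smarcc2 is at -0.55 in number-first and 0.61 in number-last libraries, and Smarce1 reaches -0.80 in number-last libraries and 0.09 in number-first ones.

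With the mean of each naming style taken away, the 10 members were not alike across the 26 libraries. Of the 45 pairs of members, 22 had an r above 0, and the median r was -0.003. Ranked by likeness to Arid1a over the same 26 libraries, among 12115 other genes, Arid2 was at rank 868 (r = 0.32) and was the highest partner. Arid1b was at rank 5257 (r = 0.03), Smarcd2 at 5502, Smarca4 at 5606, Smarcc2 at 7226, Pbrm1 at 8159, Smarcc1 at 9234, Smarce1 at 10055 and Smarcb1 at 11144 (r = -0.31). The partners thus lay from near the top to near the bottom of the ranking. Outside the 10, the subunit Gltscr1l was at rank 39 (r = 0.57), at a low mean level of 2.92 RPKM. Smarca2 was at rank 142 (r = 0.49), while Actl6a was at rank 12045 (r = -0.51). The 5 genes most like Arid1a with a mean of at least 5 RPKM were the splicing regulator Hnrnph1 (r = 0.69), the helix-loop-helix inhibitor Id1 (r = 0.69), the kinase Wnk1 (r = 0.68), the translation elongation factor Eef1a1 (r = 0.67) and the small nucleolar RNA Snord47 (r = 0.66). These points share genotype and depth as well as library, and the rankings carry no test.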

How the data were processed

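The deposited values are RPKM per gene in 1 table of 26 libraries, and every column was mapped to a sample by its title. The submitters' processing notes name the tools Subread 1.5.0, SAMtools 0.1.19 and STAR 2.4.2a and the genome mm10 (GRCm38). Settings, annotation and strand handling were not given in the sources used here. The members and lists were chosen with earlier results of these data known.

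On the scale log2(RPKM + 1), limma 3.58.1 (R 4.3.3) estimated a mean for each genotype group and a naming style term, with moderated variances (trend and robust), for 12116 genes with at least 1 RPKM in at least 5 libraries. Tests were two-sided, p-values were adjusted by Benjamini-Hochberg over all tested genes, and the threshold was an adjusted p of 0.05. The pseudocount of 1 understates changes of low genes. The fit was checked on simulated data with independent normal residuals and added shifts larger than the style-fitted differences of the members. That check does not cover smaller shifts or the set of libraries numbered 24 to 27. Groups came from the genotype label, and replicate numbers follow deposition order and pair nothing. Correlations used 100000 permutations (scipy 1.17.1). All 10 members, subunits of the 3 lists past the threshold, and the 5 genes most like Arid1a were named. Alternatives were pseudocount, filter, scaling, style handling, covariates, weights, groups in the fit and leaving out each library. A separate level for double-mutant libraries numbered 24 to 27 was chosen after seeing the data. Over all members and libraries, the lowest product of RPKM and estimated depth was about 22.4 reads per kilobase of gene.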

Additional observations from a re-analysis of the deposited data

Results flagged for a closer look

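Among 40 groups of values, 10 members in 4 genotype groups, 2 held a library far from the rest by Dixon's ratio of the gap to the range, and chance alone gives about 1 such group in 20. Smarca4 was at 25.7 RPKM in JAK2V617F replicate 6, a number-last library, with the next highest at 14.3, a gap of 0.600 of the group's range. Pbrm1 was at 8.32 RPKM in control replicate 5, the only number-last control, with the next lowest at 17.9, a gap of 0.808 of the range.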

How the results depend on the processing

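Of the counts of passing genes, those that rest on few calls moved most, and in each of the settings named here 0 partners passed by genotype. Without the naming style term the counts were 1 for JAK2V617F against control, 0 for the double mutant against control, 274 against JAK2V617F, 85 against Ezh2 loss, 215 for the interaction and 87 for any difference, in place of 0, 1, 4, 0, 0 and 12. With only the compared groups, 2 genes passed for Ezh2 loss against control, and for the double mutant 0 against control, 342 against JAK2V617F and 110 against Ezh2 loss. Number-first libraries alone gave 0 for the double mutant against control, 8 against JAK2V617F, 8 against Ezh2 loss, 0 for Ezh2 loss against JAK2V617F and 0 for any difference. With no low-value filter the counts were 2 for the double mutant against control, 1 against Ezh2 loss, 7 for Ezh2 loss against JAK2V617F, 1 for the interaction and 4 for any difference. For the double mutant against control, the stricter filter gave 4, quantile normalization 2, the neutrophil covariate 0, the detected-genes covariate 2 and array weights 6. Against JAK2V617F, the detected-genes covariate gave 7, array weights 12 and the level for libraries 24 to 27 gave 7. Against Ezh2 loss, the neutrophil covariate gave 3 and the level for libraries 24 to 27 gave 1. A pseudocount of 0.1 gave 1 for JAK2V617F against control, and the 24 to 27 level gave 1 for Ezh2 loss against control. The style count fell from 1331 to 500 with the detected-genes covariate. Leaving out 1 library at a time gave 0 to 1 for JAK2V617F and for Ezh2 loss against control, 0 to 6 for the double mutant against control, 3 to 8 against JAK2V617F, 0 to 1 against Ezh2 loss, 9 to 17 for Ezh2 loss against JAK2V617F, 0 to 1 for the interaction, 4 to 15 for any difference and 987 to 1373 for style. The cause was not tested. No paired fit was made: the title numbers 2 to 5 recur in number-last JAK2V617F and Ezh2-loss libraries, and the labels do not say that they pair libraries. With no raw counts, depth is an estimate, and with 2 number-first libraries in each single-mutant group, values within that style have wide intervals.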
